A study of Mus musculus with 15 samples.

Results

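The comparison described here is between striatum of mouse pups exposed before birth to a mixture of paraquat and titanium dioxide (TiO2) and striatum of pups exposed to TiO2 alone, so that paraquat is what the first group has in addition. It was chosen by treatment label, takes in 8 of the 15 libraries of the study (4 mixture and 4 TiO2) and takes its difference from these alone; the other libraries enter its p-values through the estimate of spread, which all 15 share. All 15569 genes of the deposited table were tested. The other libraries are 3 from paraquat alone and 4 labelled untreated, and they enter below as a second estimate of what paraquat does, whose difference uses none of the 8. All pups were C57Bl/6J, taken at postnatal day 14, and the series title gives the exposure as prenatal, to aerosols, with the TiO2 as nanoparticles. The labels give no dose, exposure schedule, dam, litter or sex, and do not say that each library is a separate animal. The spread behind every p-value is therefore that between the sequenced samples and could be in part technical. No group received a sham treatment that the labels name.

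Paraquat is a herbicide that accepts an electron from flavoprotein reductases and passes it to oxygen, which gives superoxide and returns the paraquat for another round. Cells answer oxidants largely through the factor NRF2 and its target genes of glutathione synthesis and quinone reduction. In adult rodents paraquat is used to model loss of the midbrain dopamine neurons that project to the striatum, where the basal ganglia take in their input and medium spiny neurons receive that dopamine together with glutamate from cortex. TiO2 nanoparticles are insoluble particles used as a pigment.

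Values are reads of a gene after division by the library's size factor, called normalised counts here, and differences are log2(value + 1) in mixture minus TiO2 with the standard error of the limma fit. Depth, from the same size factors, was 8889323 to 9314900 reads in the mixture libraries and 8911693 to 9655747 in the TiO2 libraries. The 11 markers of medium spiny neurons that were checked lay between 2080.2 and 21149 normalised counts in all 8 libraries. The share of mitochondrial transcripts was 19.9% ± 0.973 in mixture and 18.9% ± 1.87 in TiO2 (SD, n = 4 each; exact permutation p = 0.543, two-sided). High Xist, the RNA of the inactive X chromosome, marked mixture libraries 2 and 4 and TiO2 libraries 1 and 2, so each group held both kinds of library in equal number. Y-linked genes summed to 967 and 948 in mixture 1 and 3 and to 818 and 994 in TiO2 3 and 4. In the libraries with high Xist they summed to 3.08 or less. Neither group can therefore come from 1 animal.

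No gene of the 15569 differed between mixture and TiO2 at a Benjamini-Hochberg adjusted p under 0.05 in limma, a background of 0%, and the smallest adjusted p was 0.142. At an unadjusted p under 0.05, 932 genes (5.99%) were higher in mixture and 838 (5.38%) lower. With the spread estimated from the 8 mixture and TiO2 libraries alone limma also called 0, and 1057 were higher and 944 lower at that p. Libraries of the groups did not overlap for 512 genes (3.29%) with mixture above and 533 (3.42%) with mixture below, 6.71% of all genes together. The edgeR quasi-likelihood test and limma-voom on the recovered reads also called 0 genes, while DESeq2 on those reads called 55 (0.353%), of which 30 (0.193%) were higher in mixture and 25 (0.161%) lower; it gave no adjusted p to 7848 genes and so adjusted over 7721 and not over 15569. Without TiO2 library 4 limma called 14 genes, 10 higher and 4 lower, and without paraquat library 2, which bears on the shared spread only, it called 2.

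The size of difference that these libraries allow was bounded gene by gene. The standard error had a median of 0.12 on the log2 scale, and the 95% interval a median half-width of 0.25. For 14813 genes (95.1%) the interval lay within 2-fold in both directions, and for 11941 (76.7%) within 1.5-fold. No interval lay wholly beyond 2-fold. Estimates beyond 2-fold occurred for 34 genes, of which 11 were among the 13910 genes with a mean of at least 20 normalised counts. The absence of calls therefore does not show that the groups were alike, and differences under 1.5-fold remained unresolved for many genes.

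**Figure D1:**
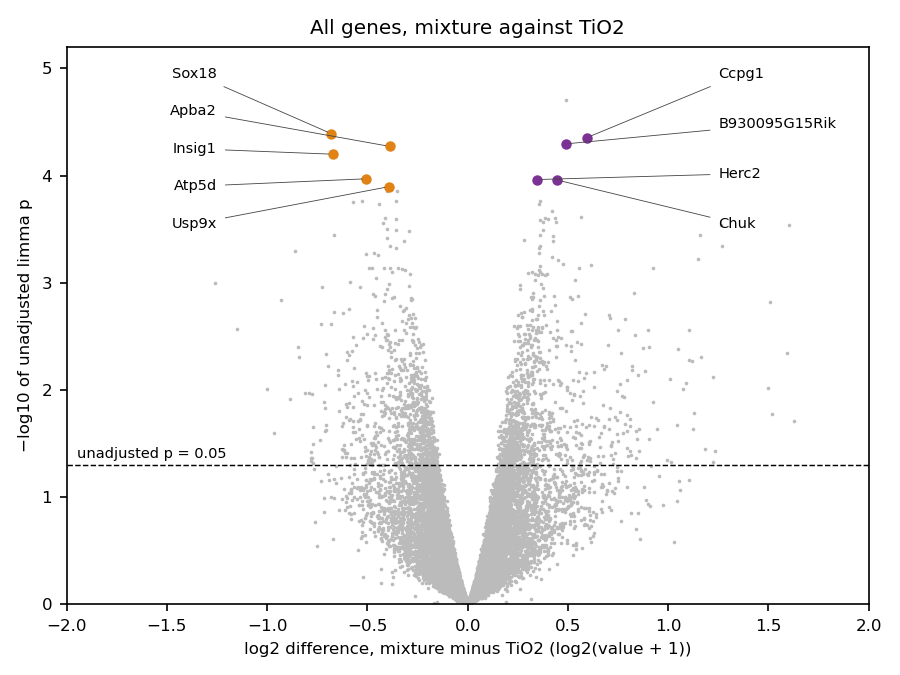
Log2 difference in mixture minus TiO2 (horizontal axis) against −log10 of the unadjusted limma p (vertical axis) for all 15569 genes. The names mark 9 of the leading genes by p, and none of them passed the adjusted threshold (smallest adjusted p 0.142).

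Of the leading differences by p (5 either way, at a mean of at least 20), 9 are described next, with none of them called by limma. All 9 had an adjusted p of 0.142, and in all 9 the mixture libraries lay on one side of the TiO2 libraries, which the choice by p favours. DESeq2 called 8 of the 9, where it called 0.353% of all genes, and left Insig1 without an adjusted p through its filter on low counts. The choice by p on the same libraries favours these calls as well, so they are not separate support.

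Ccpg1, an endoplasmic reticulum receptor for autophagy, had 232, 241, 223 and 219 normalised counts in mixture libraries 1 to 4 and 150.4, 139, 131 and 188 in TiO2 libraries 1 to 4, a difference of 0.60 ± 0.12 (95% interval 0.35 to 0.84, DESeq2 adjusted p = 0.00851). It lies at chr9:72985429-73016340 on the plus strand of mm10 (GRCm38). Its adjusted p over 27 alternative settings ran from 0.00851 to 0.32 and passed the threshold in 2. Pigb overlaps Ccpg1 on the opposite strand, and unless strand was used in counting the reads of this pair are mixed. Herc2, a giant ubiquitin ligase, had 1058, 1044, 1005 and 1109 in mixture and 849, 822, 788 and 861 in TiO2, a difference of 0.34 ± 0.07. The spread within either group was narrow for this gene. Chuk, the kinase IKK-alpha of the NF-kappa-B pathway, had 358, 363, 367 and 383 in mixture and 267, 236, 261 and 323 in TiO2, a difference of 0.45 ± 0.10. The noncoding RNA B930095G15Rik, annotated within an intron of Farp1 on the same strand, had 347, 354, 401 and 376 in mixture and 224, 259, 310.1 and 263 in TiO2, a difference of 0.49 ± 0.10. Intronic reads of Farp1 could enter its count. Ccpg1, Herc2, Chuk and B930095G15Rik all had lower means in TiO2 than in both mixture and control libraries. Their control means were 201 ± 33.0, 1039 ± 96.7, 376 ± 34.6 and 340 ± 34.1 (SD, n = 4).

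Among genes lower in mixture, Sox18, a transcription factor of endothelial cells and vessel formation, had the smallest p. It had 187, 219, 176 and 135 normalised counts in mixture and 265, 274, 340.2 and 261 in TiO2, a difference of −0.68 ± 0.14 (95% interval −0.96 to −0.40). Mixture 4 was lowest, and control libraries had 134, 165, 177 and 161, near the mixture values. Apba2, the neuronal adaptor MINT2 that binds the amyloid precursor protein and Munc18, had 488, 494, 540.0 and 546 in mixture and 665, 640.5, 787 and 624 in TiO2, a difference of −0.39 ± 0.08. Insig1, the sterol sensor that holds SREBP in the endoplasmic reticulum, had 149.5, 95.5, 113 and 95.6 in mixture and 162, 155, 214 and 189.9 in TiO2, a difference of −0.67 ± 0.14. Its highest mixture library, replicate 1, came within a few counts of the lowest TiO2 library. Atp5d, the delta subunit of the mitochondrial ATP synthase, had 1011, 1059, 1125 and 861 in mixture and 1376, 1571, 1621 and 1202 in TiO2, a difference of −0.51 ± 0.11; it overlaps Cbarp on the other strand. Usp9x, an X-linked deubiquitinase needed for neural development, had 807, 1035, 929 and 958 in mixture and 1217, 1263, 1208 and 1193 in TiO2, a difference of −0.39 ± 0.09. As for Sox18, the TiO2 means of Apba2, Insig1, Atp5d and Usp9x exceeded their control means. Those control means were 508 ± 15.2, 143 ± 19.0, 717 ± 63.7 and 627 ± 78.7 (SD, n = 4).

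**Figure D2:**
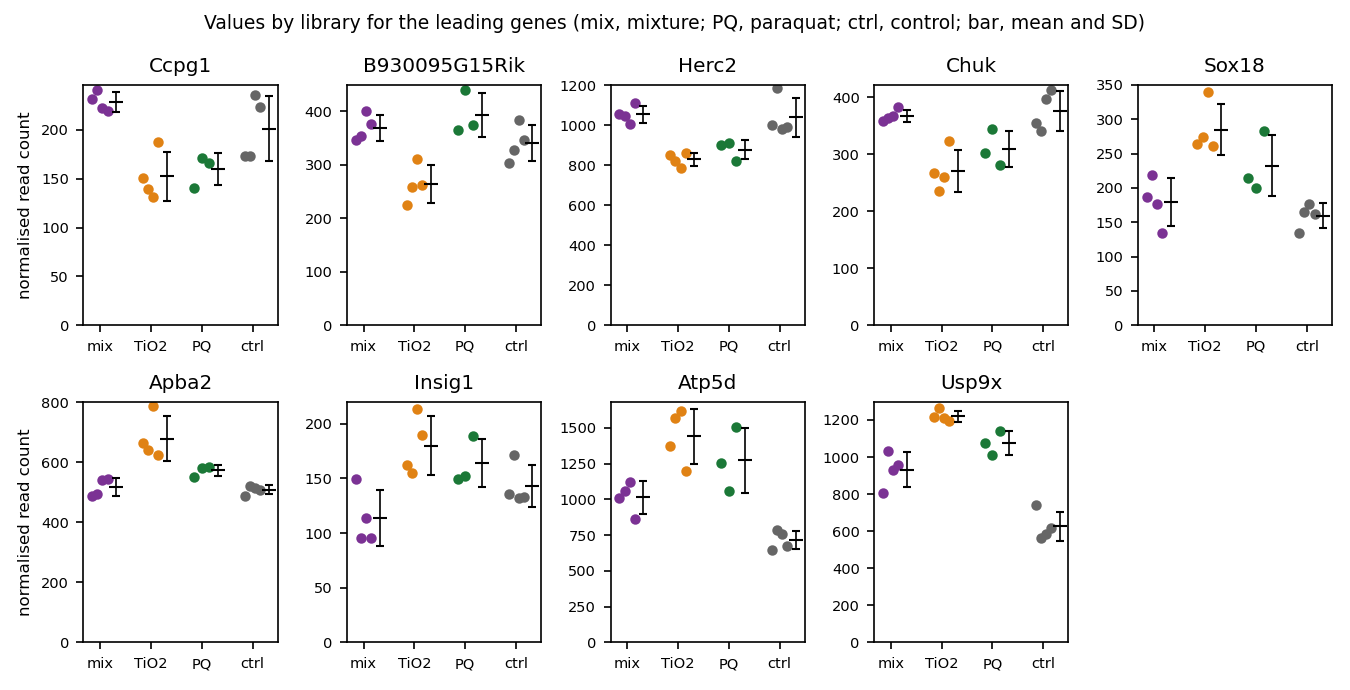
Normalised counts (vertical axes, from 0) of the 9 genes in the mixture, TiO2, paraquat and control libraries, with 1 point for each library and a bar for mean and SD. The mixture points do not overlap the TiO2 points in any panel, while paraquat libraries of Usp9x lie at 1009.6 to 1142 and control libraries at 566 to 741.

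Promoters of 7 of the 9 genes were in the RefSeq table for GRCm38.p6, which gives 250 bases before and 50 after each gene's start. They were searched on both strands for TGACNNNGC (antioxidant response element), TGACGTCA (cyclic AMP response element), CACGTG (E-box) and GCGTG (xenobiotic response element core). The antioxidant element letters stood in 14.1% of the 10930 promoters of genes in the table and in 1 of the 7, that of Apba2. CACGTG stood in 9.74% and in 1 of the 7, that of Insig1, TGACGTCA in 3.08% and in none of the 7, and GCGTG in 50.4% and in 5 of the 7. A match describes letters in this window and says nothing of binding. The promoters of Apba2 (chr7:64501456-64501755, plus strand) and Insig1 (chr5:28071162-28071461, plus strand) are shown because they hold these rarer matches, with every searched motif on either strand in capitals; in these 2 no motif overlaps another.
Apba2: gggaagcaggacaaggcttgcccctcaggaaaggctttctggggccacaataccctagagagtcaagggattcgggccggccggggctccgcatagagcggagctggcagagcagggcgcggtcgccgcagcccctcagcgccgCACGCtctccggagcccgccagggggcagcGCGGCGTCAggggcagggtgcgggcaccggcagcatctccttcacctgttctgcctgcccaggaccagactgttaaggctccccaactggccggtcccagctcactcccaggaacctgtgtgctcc
Insig1: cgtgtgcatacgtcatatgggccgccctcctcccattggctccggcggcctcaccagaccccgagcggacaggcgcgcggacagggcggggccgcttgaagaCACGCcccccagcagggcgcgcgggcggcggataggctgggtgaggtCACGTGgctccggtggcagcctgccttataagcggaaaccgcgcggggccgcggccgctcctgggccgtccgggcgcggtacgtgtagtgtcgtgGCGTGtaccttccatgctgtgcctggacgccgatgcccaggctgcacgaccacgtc

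The 55 DESeq2 calls were all in the same direction in limma and all had a limma unadjusted p under 0.05. Libraries did not overlap for 54 of them, against 6.71% of all genes. Their choice by a test on the same libraries favours each of these, so none is separate support. Their log2 differences were modest, 0.23 to 0.67 in size. Of the 55, which are 0.353% of all genes, 6 belong to the gene lists used below, which hold 644 genes of the table. Among them are Vps35 (a retromer subunit whose mutation causes familial Parkinson's disease; 0.37 ± 0.09), the cochaperone Dnaja1 (0.42 ± 0.10), the adenosine receptor Adora2a (−0.33 ± 0.08), the metabotropic glutamate receptor Grm3 (−0.32 ± 0.08) and the mineralocorticoid receptor Nr3c2 (−0.35 ± 0.09). Vps35 had 1337, 1474, 1291 and 1477 normalised counts in mixture and 1105, 1029.9, 932 and 1253 in TiO2. Adora2a, the receptor that marks medium spiny neurons of the indirect pathway, had 2506, 2471, 2456 and 2080.2 in mixture and 2999, 2899, 3319 and 2705 in TiO2. Both genes had separate groups of libraries, which their choice by p also favours. None of these 5 was called by limma with all libraries or by edgeR, while Vps35 and Dnaja1 also passed in limma without TiO2 4. Of all 55, 14 passed in at least 1 setting other than DESeq2.

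Genes of oxidative defence gave no call. Of 31 measured members of the list, 2 were higher and 3 lower in mixture at an unadjusted p under 0.05, shares near the 5.99% and 5.38% of all genes, and the list median was −0.01, against −0.003 over all genes. Gclc and Gclm, the subunits of the enzyme that makes the first step of glutathione, were the 2 higher members. Gclc had 714, 733, 625 and 700.2 in mixture and 580.0, 595, 532 and 650.4 in TiO2, a difference of 0.24 ± 0.08 with an adjusted p of 0.261, and Gclm a difference of 0.27 ± 0.12. Of the classical NRF2 targets, heme oxygenase Hmox1 had 99.0, 79.2, 97.8 and 96.7 in mixture and 116, 109.8, 94.3 and 104 in TiO2, a difference of −0.19 ± 0.14, with mixture 2 far below the other mixture libraries. The quinone reductase Nqo1 had 23.8, 15.2, 19.8 and 17.5 in mixture and 14.5, 16.3, 19.1 and 14.9 in TiO2, a difference of 0.21 ± 0.22. Both genes overlapped between the groups. Sulfiredoxin Srxn1 differed by −0.05 ± 0.10 and thioredoxin reductase Txnrd1 by 0.16 ± 0.09.

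The superoxide dismutases differed by 0.09 ± 0.09 for the cytosolic Sod1 and 0.04 ± 0.08 for the mitochondrial Sod2, and catalase (Cat) by 0.07 ± 0.11. Their 95% intervals, −0.10 to 0.28, −0.12 to 0.21 and −0.16 to 0.30, all lay within 1.5-fold of no difference. The 3 lower members were Gpx1 (−0.28 ± 0.10), Gpx4 (−0.50 ± 0.20) and Gstp1 (−0.71 ± 0.25), a peroxidase of the cytosol, one of membrane lipids and a glutathione transferase. Gpx4 averaged only 20.2 ± 2.72 in mixture and 28.9 ± 1.71 in TiO2 (SD, n = 4 each). Gpx4 and Gstp1 have near-identical copies in the genome, so their counts are uncertain. Of 10 genes for superoxide sources and reductases that can reduce paraquat, 0 were higher and 2 lower, where 5.38% of all genes were lower. The 2 were Ncf1 and the GTPase Rac2, both of the phagocyte oxidase, at −0.47 ± 0.19 and −0.34 ± 0.16.

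The dopamine system list held 20 measured genes, with 3 higher in mixture, 1 lower and a median of −0.04. Over all genes 5.99% were higher and 5.38% lower at an unadjusted p under 0.05. Besides Vps35 the higher members included Maob, a monoamine oxidase, at 0.44 ± 0.14. The lower member was the D2 receptor Drd2, with 2495, 2473, 2753 and 2153 normalised counts in mixture and 2965, 2787, 2965 and 2860.1 in TiO2, a difference of −0.23 ± 0.09 and an adjusted p of 0.315. The groups did not overlap for Drd2. The D1 receptor Drd1 had 2821, 2864, 2981 and 2594 in mixture and 3157, 2724, 2719 and 3001 in TiO2, a difference of −0.04 ± 0.07. Ppp1r1b, the dopamine-regulated phosphatase inhibitor DARPP-32, differed by −0.15 ± 0.10, with overlapping groups. Complex I, a site of superoxide formation, had 1 of 37 subunits higher (Ndufs1, 0.19 ± 0.08), none lower and a median of 0.04. Of 7 mitochondrially encoded mRNAs, mt-Nd6 alone reached an unadjusted p under 0.05, at 0.51 ± 0.16.

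Cell type markers were next set side by side, since in a dissected tissue a different number of cells of a type and a different RNA level per cell cannot be told apart. Markers of glutamatergic neurons of cortex, which lies next to striatum, had the largest list median, 0.84, with 4 of 13 genes higher in mixture at an unadjusted p under 0.05, where 5.99% of all genes were, and 0 lower. That count was 1 without TiO2 1, 2 without mixture 1, mixture 4, TiO2 2 or TiO2 4, and 6 without TiO2 3. Summed over the list they reached 4666 to 6614 in mixture and 3179 to 4661 in TiO2, ranges that just did not overlap. The 4 genes were Nrn1 (1.59 ± 0.46), Slc17a6 (1.52 ± 0.55), Tbr1 (1.23 ± 0.55) and Fezf2 (1.18 ± 0.51). Tbr1, a transcription factor of early-born cortical neurons, had 925, 522, 548 and 1089 in mixture and 157, 293, 519.8 and 401 in TiO2. No marker of the list was at 0 in any library. Mixture libraries 4 and 1 had the largest sums. The summed cortical markers were 3656 to 7915 in paraquat and 2578 to 4019 in control libraries.

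Ependymal cells, the ciliated lining of the ventricles, had 3 of 9 markers higher, 0 lower and a median of 0.67; the count was 1 without mixture 4 or TiO2 4, 3 without TiO2 1 and 2 without any other single library. All 9 had a positive difference, and the sums were 182 to 237 in mixture and 93.5 to 163 in TiO2. Ccdc153 (1.22 ± 0.42), Ak7 (0.85 ± 0.38) and Hydin (0.74 ± 0.33) are genes of motile cilia, all at low levels. Over all genes 5.99% were higher at an unadjusted p under 0.05. Of 20 collagens and laminins, which build basement membrane and meningeal matrix, 5 were higher and 0 lower, with a median of 0.17. They were Col11a1 (0.61 ± 0.16), Col1a2 (0.45 ± 0.14), Col1a1 (0.43 ± 0.17), Col5a2 (0.33 ± 0.15) and Col4a1 (0.30 ± 0.09). The list summed to 5223 to 5676 in mixture and 4780.2 to 4970.5 in TiO2, without overlap. The sums of these 3 lists were higher in every mixture library than in any TiO2 library, and their part in other differences was not tested. Lists of neighbouring tissue did not all separate. The leptomeninges and fibroblasts list summed to 1471 to 1614 in mixture and 1356 to 1514 in TiO2, with a median of 0.09, and choroid plexus markers to 167 to 256 in mixture and 174 to 206 in TiO2, with a median of −0.09. Leaving out 1 library at a time, a check on the lists chosen after seeing the data, gave medians of 0.56 to 1.05 for the cortical list, 0.44 to 0.87 for the ependymal list and 0.11 to 0.21 for collagens and laminins. The cortical median was lowest without TiO2 1, the ependymal median without TiO2 4 and the collagen median without mixture 3.

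Precursors of oligodendrocytes had 0 of 12 markers higher and 5 lower, where 5.38% of all genes were lower, with a median of −0.18. The lower count was 2 without TiO2 3, 3 without mixture 1 or TiO2 2, and 6 without TiO2 1. The 5 were C1ql1 (−0.43 ± 0.15), the phosphatase Ptprz1 (−0.33 ± 0.11), the receptor Gpr17 (−0.23 ± 0.09) and the transcription factors Olig1 (−0.22 ± 0.11) and Sox6 (−0.20 ± 0.09). Ptprz1, the most abundant of them, had 5677, 6229, 5896 and 6929 in mixture and 7721, 7226, 7182 and 8957 in TiO2, without overlap. The summed list was 24974 to 27574 in mixture and 27248 to 30603 in TiO2, which overlapped. Without 1 library at a time the list median ran from −0.24 (without TiO2 1) to −0.12 (without TiO2 3). Of 15 astrocyte markers 5 were lower and 0 higher, namely Slc7a10 (−0.35 ± 0.11), Aldoc (−0.31 ± 0.12), Sox9 (−0.22 ± 0.10), Gja1 (−0.21 ± 0.07) and the water channel Aqp4 (−0.21 ± 0.09). The astrocyte count was 3 without mixture 4 or TiO2 4 and 4 without any other single library, and the sums overlapped, at 52923 to 64864 in mixture and 59308 to 62925 in TiO2. Gfap, an astrocyte filament that responds to injury, differed by 0.02 ± 0.12. Microglia had 1 of 15 markers higher and 1 lower, and their calcium-binding marker Aif1 differed by −0.16 ± 0.25, with summed levels of 5973 to 6885 in mixture and 6944 to 7373 in TiO2.

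Myelin genes did not stand apart: of 18, none reached an unadjusted p under 0.05 in either direction, and the median was −0.10. Over all genes 5.99% were higher and 5.38% lower at that p. Mbp, the myelin basic protein, had 27271, 30059, 34419.5 and 19407 in mixture and 23532, 32770.2, 37749.9 and 23347 in TiO2, a difference of −0.08 ± 0.20 within widely overlapping groups. General markers of medium spiny neurons had 0 of 20 higher and 1 lower (Gng7, a G protein subunit, −0.26 ± 0.08), with a median of −0.08. In the direct pathway 1 of 10 was higher (the neuropeptide gene Tac1, 0.22 ± 0.09), and in the indirect pathway 2 of 9 were lower (Adora2a and Drd2). Striatal interneurons had 0 higher and 1 of 13 lower, endothelial cells and pericytes 0 and 1 of 15, and immature neurons 1 and 0 of 15. Leptomeninges had 2 higher and 0 lower of 10, both of them collagens already named, and choroid plexus and blood cells 0 of 5 each.

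**Figure D3:**
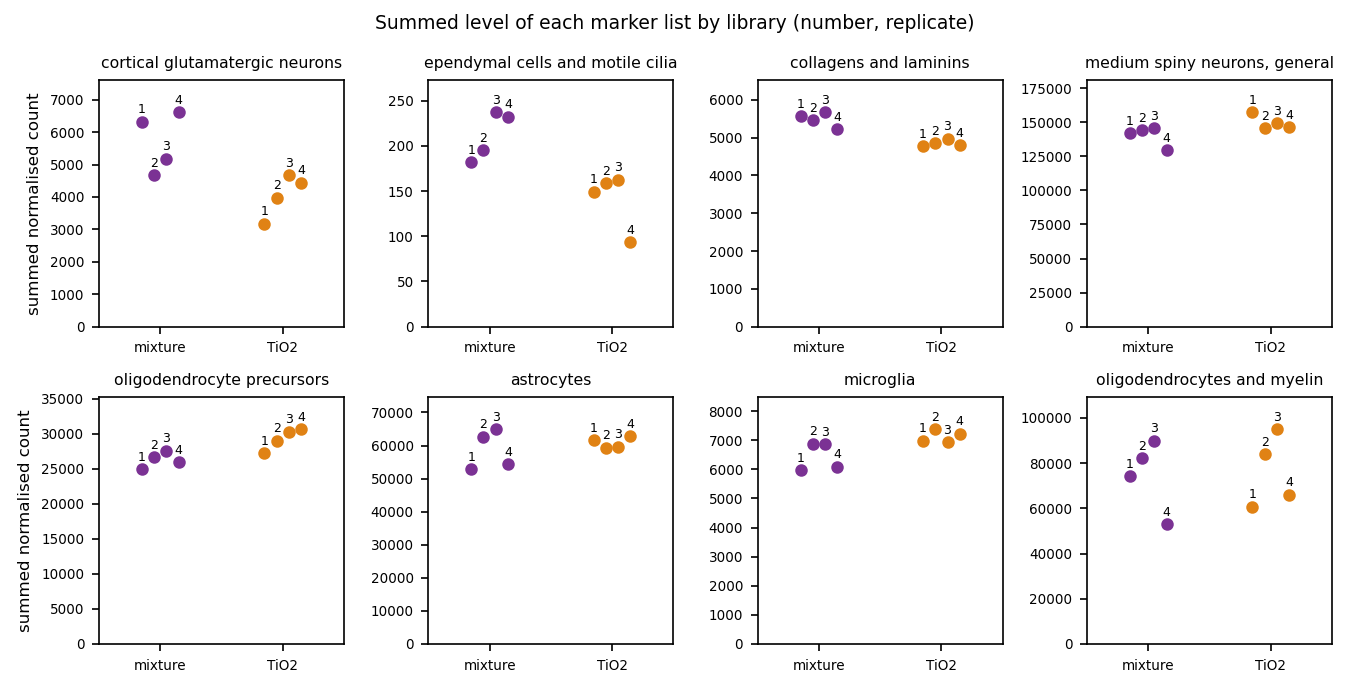
Summed normalised counts (vertical axes, from 0) of 8 marker lists in each mixture and TiO2 library, with replicate numbers beside the points. Cortical, ependymal and matrix sums lie higher in mixture without overlap, and microglial sums lie lower without overlap, while myelin sums overlap widely.

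Among lists of neuronal signalling the counts at an unadjusted p under 0.05 went both ways. Over all genes 5.99% were higher and 5.38% lower at that p, and many of these counts are small. Glutamate receptors had 2 of 22 higher (Gria3, Gria4) and 3 lower (Grm3, Grin1, Grik5), and GABA-A receptor subunits 3 of 14 higher (among them Gabra3 and Gabra2) and 2 lower (Gabrb2, Gabrd). Gria3 differed by 0.22 ± 0.09, and Grin1, the obligatory NMDA receptor subunit, by −0.25 ± 0.09. Voltage-gated potassium channels had 2 of 21 higher and 3 lower. The extremes were Kcnc2, a channel of fast-spiking neurons, at 0.68 ± 0.21, and Kcna3 at −0.72 ± 0.27. Among 7 opioid genes the mu receptor Oprm1 had 40.6, 73.8, 67.6 and 76.1 in mixture and 103, 88.5, 104 and 100.4 in TiO2, a difference of −0.65 ± 0.22 without overlap, while the nociceptin precursor Pnoc differed by 0.57 ± 0.25. Synaptic vesicle genes had 3 of 19 higher and 1 lower, and axon guidance genes 3 of 36 higher and 6 lower, the lower ones led by Plxnd1 (−0.28 ± 0.08) and Sema6d (−0.21 ± 0.07). Immediate early genes, which report recent neuronal activity, had none of 22 in either direction.

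Heat shock proteins and cochaperones had 5 of 15 genes higher and 0 lower at an unadjusted p under 0.05, where 5.99% of all genes were higher, although the list median was −0.04. Without mixture 4 or TiO2 1 the higher count was 3. Dnaja1 had 1119, 1101, 939.5 and 1143 in mixture and 839, 790.0, 665 and 933 in TiO2, a difference of 0.42 ± 0.10, without overlap. Its partner Hspa8, the constitutive Hsc70, differed by 0.28 ± 0.09, Hsph1 by 0.25 ± 0.10, Chordc1 by 0.29 ± 0.12 and the endoplasmic reticulum chaperone Hspa5 by 0.27 ± 0.12. Cholesterol synthesis genes had 18 of 20 negative differences, of which 2 reached an unadjusted p under 0.05, among them Insig1. Of all genes 50.7% had a negative difference and 5.38% were lower at that p. Of 14 corticosteroid-induced genes and receptors 1 was higher (Sult1a1, 0.77 ± 0.24) and 3 were lower, the receptors Nr3c2 and Nr3c1 (−0.26 ± 0.08) and the clock gene Per1 (−0.30 ± 0.11). The stress response through ATF4 had 0 higher and 1 of 14 lower (Ddit3, −0.29 ± 0.13), the circadian clock 0 and 1 of 17, and cytosolic ribosomal proteins 3 and 1 of 61. The retinoic acid (15 genes), interferon (17), cell division (18), p53 (15) and metal handling (12) lists had 0 in either direction. Small counts of other lists moved as well when 1 mixture or TiO2 library was left out: lower microglial markers and lower ribosomal proteins each numbered 0 to 5, and lower axon guidance genes 3 to 7.

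**Figure D4:**
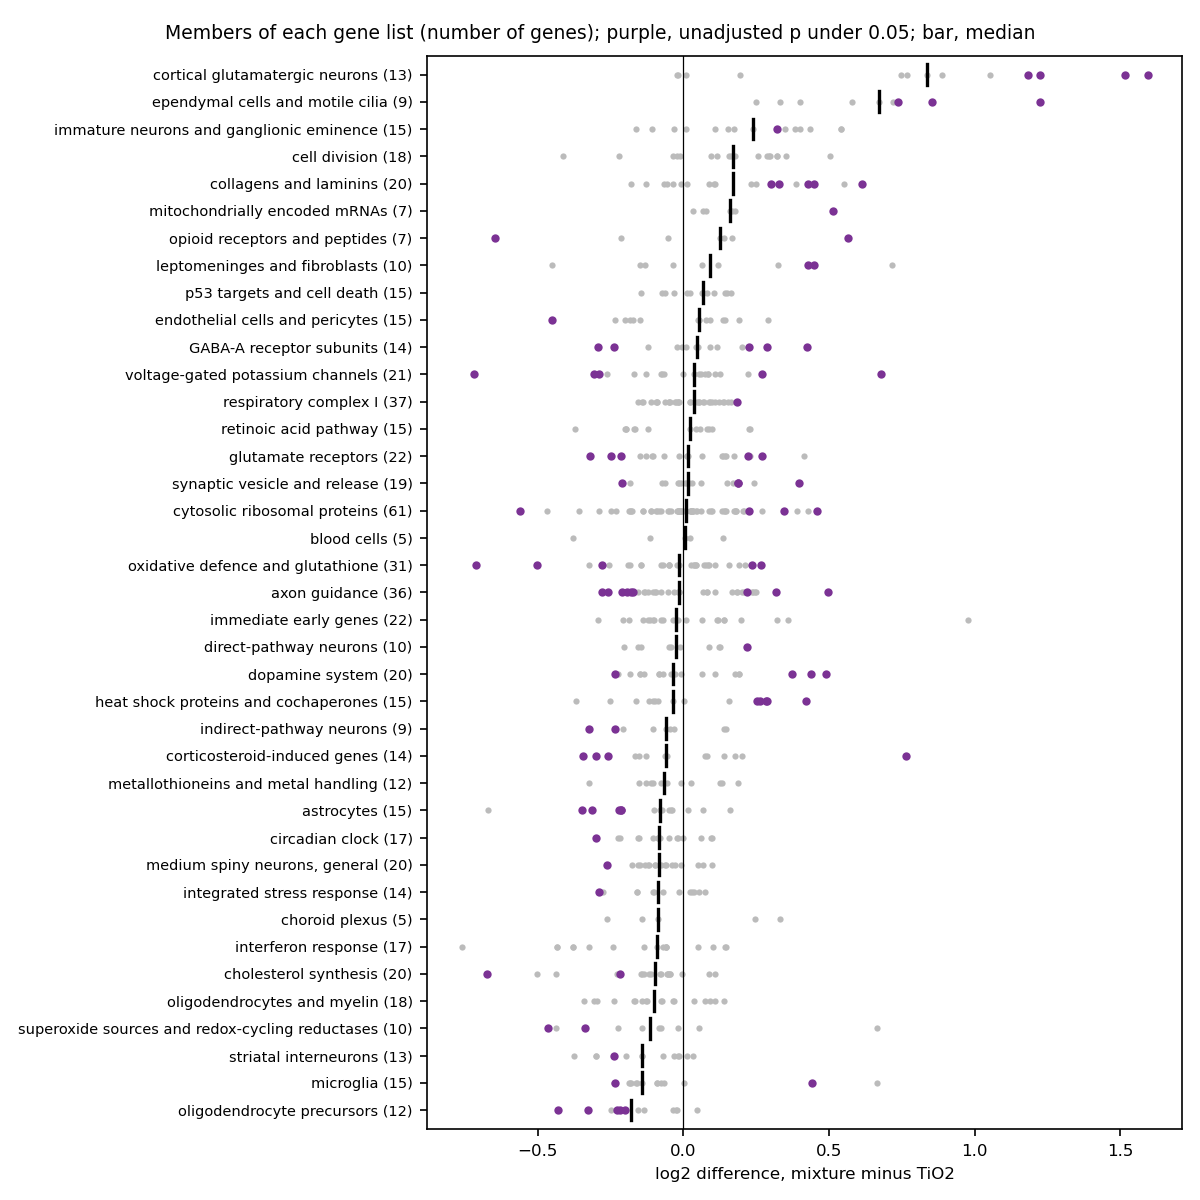
Log2 differences in mixture minus TiO2 (horizontal axis) of the members of 39 gene lists, ordered by median. Purple points have an unadjusted p under 0.05, grey points do not, black bars are medians, and numbers in brackets count the genes; the cortical list has the highest median, at 0.84.

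The second estimate of an added paraquat exposure, paraquat minus control, takes its difference from 7 libraries that give no part of the difference in mixture minus TiO2, though the fits share the estimate of spread. In that comparison 976 genes (6.27%) rose and 623 (4%) fell. The counts depended on single libraries: 571 rose without paraquat 1, 396 without paraquat 3 and 565 without control 1, while 165, 269 and 274 fell without the same libraries and 311 fell without control 4. The 976 genes had a median difference of −0.12 in mixture minus TiO2, with 758 (77.7%) negative, where 50.7% of all genes had a negative difference. Of the 976, 185 (19%) were lower in mixture at an unadjusted p under 0.05 and 20 (2.05%) higher, against the backgrounds of 5.38% and 5.99%. The 623 genes had a median of 0.12, with 520 (83.5%) positive, where 49.3% of all genes had a positive difference. Of the 623, 143 (23%) were higher and 6 (0.963%) lower at that p. Genes that differed with paraquat in the absence of TiO2 thus lay mostly on the other side of 0 in its presence. Against the control mean, the 976 genes had library medians of 0.17 to 0.35 in mixture and 0.29 to 0.51 in TiO2. In paraquat libraries they were 0.40 to 0.59. Those of the 623 were −0.22 to −0.10 in mixture, −0.44 to −0.14 in TiO2 and −0.43 to −0.32 in paraquat. Each set thus lay on the same side of control in every exposed library, which its choice against the control libraries favours.

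The opposite lean of these genes in mixture minus TiO2 was small per gene and uneven across libraries. Relative to the TiO2 mean, the 976 genes had medians of −0.09, −0.13, −0.01 and −0.21 in mixture libraries 1 to 4, and −0.08, 0.02, 0.14 and −0.07 in TiO2 libraries 1 to 4. The groups overlapped, with mixture 4 lowest and TiO2 3 highest. The 623 genes had medians of 0.13, 0.14, 0.04 and 0.17 in the mixture libraries and 0.06, −0.01, −0.18 and 0.12 in the TiO2 libraries, which overlapped as well. Without TiO2 3 the median of the 976 moved to −0.06, with 65% negative, and that of the 623 to 0.06. Over all 15569 genes the correlation between the comparisons was −0.22, given as a description since genes are not independent.

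Transcript GC content moved with both comparisons, in opposite directions. The correlation across 15543 genes of GC content was −0.31 with mixture minus TiO2 and 0.40 with paraquat minus control. Genes higher in mixture at an unadjusted p under 0.05 had a median GC content of 45.6% and those lower 54.1%, against 50.2% over all genes. A library's own correlation of its deviations with GC content averaged −0.0969 ± 0.198 in mixture and 0.145 ± 0.237 in TiO2 (SD, n = 4 each; exact permutation p = 0.2, two-sided). In paraquat libraries 1 to 3 this correlation was 0.33, 0.025 and 0.28. In control libraries 1 to 4 it was −0.38, 0.052, −0.16 and −0.35, and paraquat against control was not tested for it. With the GC trend of each library removed, 788 genes rose and 415 fell with paraquat, and their medians in mixture minus TiO2 were −0.09 and 0.08. The correlation between the comparisons was then −0.12, and limma called 1 gene for mixture minus TiO2, Usp9x. The median of the cortical list was then 0.85, of the ependymal list 0.63, of collagens and laminins 0.26 and of oligodendrocyte precursor markers −0.14, while that of mitochondrially encoded mRNAs, 0.16 before, was −0.01.

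**Figure D5:**
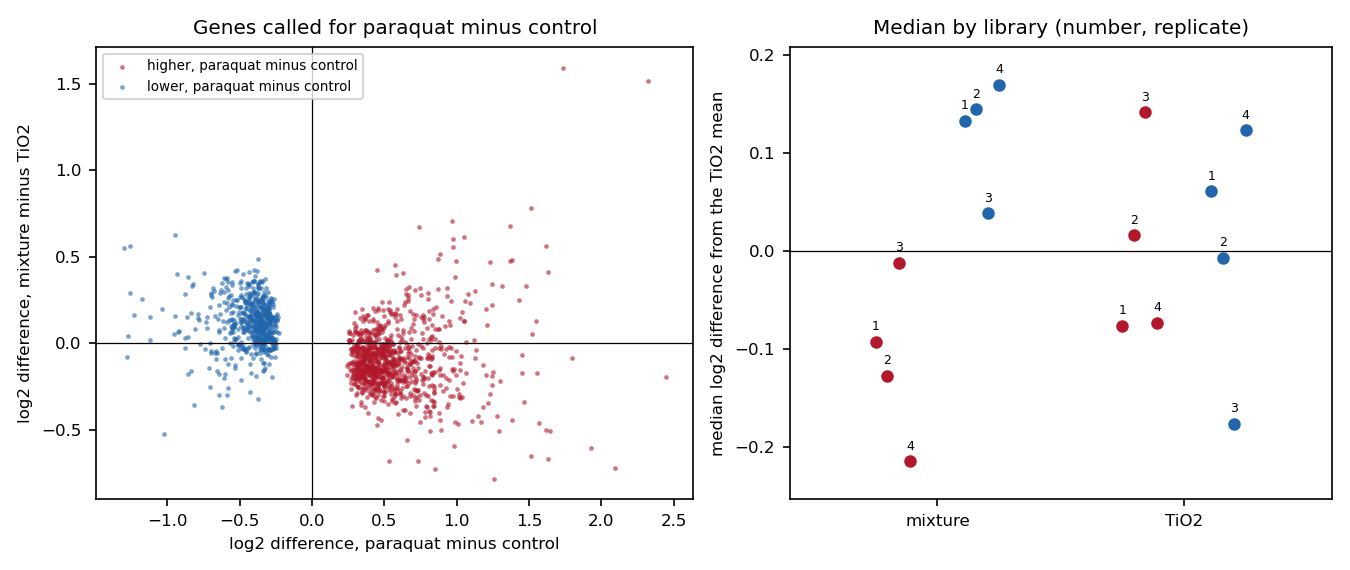
Left, log2 difference in mixture minus TiO2 (vertical axis) against paraquat minus control (horizontal axis) for the 976 genes that rose with paraquat (red) and the 623 that fell (blue). Right, the median of each set in every mixture and TiO2 library as a log2 difference from the TiO2 mean, with replicate numbers; mixture 4 and TiO2 3 are the extremes.

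Individual genes of that comparison show the range. The 6 with the smallest p that rose with paraquat were Xkr4, Nkain3, Slc9a7, Klhl11, Stxbp5l and Usp9x, and all 6 had a negative difference in mixture minus TiO2. Nkain3, whose product interacts with the sodium pump, rose by 1.63 ± 0.17 with paraquat and had 51.5, 66.2, 63.5 and 70.9 in mixture against 104, 106, 110.4 and 82.5 in TiO2, a difference of −0.67 ± 0.16. For Xkr4, a phospholipid scramblase, the rise was 1.64 ± 0.16 and the difference with TiO2 present −0.50 ± 0.15, and for Klhl11, a ubiquitin ligase adaptor, they were 1.93 ± 0.20 and −0.60 ± 0.19. Slc9a7, a sodium-proton exchanger of the Golgi, had 1.57 ± 0.17 and −0.46 ± 0.16, and the syntaxin-binding Stxbp5l 1.24 ± 0.14 and −0.24 ± 0.13. The 6 that fell were Gpx6, Dbpht2, 3110039M20Rik, Ddx11, Rarb and Eml5. Of these 5 had a positive difference in mixture minus TiO2, from 0.09 for 3110039M20Rik to 0.36 for Dbpht2, and Gpx6 was at −0.18 ± 0.09. The retinoic acid receptor gene Rarb, a striatal regulator, fell by 0.49 ± 0.08 with paraquat alone and had 3572, 3537, 3295 and 3540.3 in mixture and 3493, 3242, 2924 and 3379 in TiO2, a difference of 0.10 ± 0.07.

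Whether adding paraquat differed in the presence and absence of TiO2 was tested directly as the interaction, mixture minus TiO2 less paraquat minus control. It was called for 1833 genes (11.8%), 843 of them higher (5.41%) and 990 lower (6.36%). The counts depended on single libraries of every group. The higher count was 334 without paraquat 1, 435 without TiO2 3, 480 without mixture 4, 503 without control 4, 510 without mixture 2 and 525 without control 1. The lower count was 549 without paraquat 1, 577 without TiO2 3, 584 without paraquat 3 and 619 without mixture 4. With the GC trend removed the counts were 462 and 656. Of the 9 leading genes described, 8 were called in the interaction, all but B930095G15Rik, although their choice by the mixture and TiO2 libraries favours this.

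Usp9x had an interaction of −1.18 ± 0.13 (adjusted p = 1.1e-05), at −0.39 with TiO2 and 0.78 without, and Atp5d −1.32 ± 0.16 (adjusted p = 5.5e-05), at −0.51 and 0.82. Against control, Usp9x was higher by 0.97 in TiO2 and 0.57 in mixture, and Atp5d by 1.00 and 0.50. Over all genes 5.41% were called higher in the interaction and 6.36% lower. Myelin genes had 9 of 18 members called lower in the interaction and 0 higher. With paraquat alone 15 of the 18 rose, where 6.27% of all genes did, in libraries that the interaction also uses. Mbp was at 0.97 ± 0.22 without TiO2 and −0.08 ± 0.20 with it, an interaction of −1.05 ± 0.30 (adjusted p = 0.0411). Against control, Mbp was higher by 0.52 ± 0.20 in TiO2 and 0.44 ± 0.20 in mixture, neither called by limma. Summed myelin genes averaged 59117 in control, 76389 in TiO2, 74804.5 in mixture and 102582 in paraquat libraries. Precursor markers had 7 of 12 called lower in the interaction, with Sox6 at 0.49 without TiO2 and −0.20 with it, and astrocyte markers 4 of 15. Potassium channels had 8 of 21 lower and 1 higher. Kcna3 had 32.7, 59.7, 41.6 and 39.1 in mixture, 75.7, 71.2, 69.2 and 64.6 in TiO2, 69.5, 47.7 and 63.9 in paraquat and 30.0, 10.3, 10.6 and 8.85 in control libraries, an interaction of −2.81 ± 0.39. The mu opioid receptor Oprm1 likewise had −2.16 ± 0.32. Of the higher calls, which took in 5.41% of all genes, complex I had 5 of 37 and cytosolic ribosomal proteins 6 of 61. The dopamine system had 4 of 20 (among them Vps35, Maob and Maoa). Called lower were 0 of complex I, 2 of the ribosomal proteins and 1 of the dopamine system.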

How the data were processed

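RNA of striatum was sequenced in 15 libraries (NucleoSpin RNA II, Lexogen SENSE total RNA kit, NextSeq500, per the labels' protocols). The authors deposited a table of 15569 genes in normalised signal: whole read counts divided by a size factor per library. This was read from the values, since in all libraries 100% of values are whole multiples of 1 step within 0.001. Recovery of whole reads is claimed for 11 libraries, as in the other 4 (paraquat 1, TiO2 3 and 4, mixture 1) the step lies within 0.01 of 1. Bowtie2 2.3.2.2 and DESeq2 2.1.8.3 were used by the authors with the mm10 genome, per the submitters' processing notes. For the counter, annotation, use of strand and gene filter the entry is: not given in the sources used here.

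Depth was 8690925 to 14207513 reads, with 0 to 4 genes at 0 per library, and a floor of 3 reads is 2.97 to 3.25 units of signal in mixture and TiO2 libraries. Molecular identifiers were not available, so depth bounds the counting error alone. Within each group every pair of libraries differed by more than counting noise. Chi-square per degree of freedom was 3.02 to 18.1 for mixture and TiO2 pairs and reached 25.1 between paraquat 2 and 3. Each library was treated as 1 sample, though this spread does not show that each is a separate animal.

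The main test was limma 3.58.1 (R 4.3.3, trend and robust options) on log2(value + 1) with no filter, with all 15 libraries in 1 fit of group means that share the estimate of spread, and Benjamini-Hochberg adjustment over 15569 genes at 0.05. Fold changes on that scale understate the change of low genes. The steps were tested on simulated data. Library measures were compared by exact permutation over 70 splits, where the smallest possible p is 0.0286; over the 3 measures tested the adjusted p was 0.6 or more. Alternatives were DESeq2 1.42.0, edgeR 4.0.16 quasi-likelihood and voom on recovered reads, other scalings, pseudocounts of 0.5 and 5, a mean of at least 20, terms for Xist (above 1000) and GC content, a replicate block, and each library left out.

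Named genes are the 5 smallest p in each direction at a mean of at least 20 (none being called), 15 genes of redox defence, dopamine signalling and glia, members of 39 lists at an unadjusted p under 0.05, and the 6 smallest p each way for paraquat minus control; genes outside these were chosen after their values were seen. The comparison, members and lists were chosen with earlier results of these data known. All symbols matched GENCODE M21 on GRCm38, the assembly of mm10. Of the genes these rules choose, 3 are not reported here.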

Additional observations from a re-analysis of the deposited data

Results flagged for a closer look

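In the mixture group Hmox1 stood out by a single library: replicate 2 had 79.2 normalised counts, far below the other mixture libraries by Dixon's criterion for 4 samples. Chance flags about 1 in 20 groups.

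The difference made by adding paraquat was not the same with and without TiO2 for 1833 genes in limma's interaction test, and for 8 of the 9 leading genes described. Their interactions on the log2 scale were 0.92 for Ccpg1, 0.59 for Herc2, 0.73 for Chuk, −1.21 for Sox18, −0.56 for Apba2, −0.87 for Insig1, −1.32 for Atp5d and −1.18 for Usp9x. These genes were chosen by their p in mixture minus TiO2, which is part of the interaction.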

How the results depend on the processing

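For mixture minus TiO2, limma called 0 genes, edgeR and voom 0, DESeq2 55, the fit with the GC trend removed 1 and the fit with the replicate number as a block 5 (among them Atp5d, Sox18, B930095G15Rik and Kcnc2). Same-numbered mixture and TiO2 libraries correlated at −0.18, 0.27, 0.27 and −0.04, and mixture 1 and 4 correlated more with TiO2 libraries of other numbers. The labels give no pairing, and these correlations cannot show whether samples of the same number share more than that number. With the GC trend removed the interaction had 462 genes higher and 656 lower, and 415 genes fell with paraquat. Leaving out 1 library at a time, including paraquat and control libraries (added after the data were seen), gave 0 to 14 calls for mixture minus TiO2, 638 to 1271 genes higher and 604 to 1037 lower at an unadjusted p under 0.05, 334 to 1150 interaction calls higher and 549 to 1162 lower, 396 to 1143 genes that rose and 165 to 873 that fell with paraquat, and medians of −0.155 to −0.0643 and 0.060 to 0.166 for those genes in mixture minus TiO2. The group difference in mitochondrial share ran from 0.147 to 1.59 percentage points, that in GC correlation from −0.326 to −0.139, and that in depth from −204552 to 43466 reads, turning positive without TiO2 4. Of the named genes' differences and interactions 856 values kept direction and side of the threshold, 16 newly passed it and 9 changed sign, all in uncalled genes. Srxn1 was 0.0448 with the GC trend removed. With 1 library left out, values ran from −0.147 to 0.0137 for Srxn1 (positive without mixture 1), −0.0057 to 0.0868 for Sod2 (negative without mixture 2), −0.191 to 0.0844 for Mbp (positive without mixture 4 or TiO2 3), −0.0946 to 0.093 for Gfap (negative without mixture 2, mixture 3 or TiO2 1) and −0.381 to 0.0228 for Aif1 (positive without TiO2 4). The causes were not tested. Small groups and spread between libraries, with a median standard error of 0.12, limit what could be called.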
